A study of Mus musculus with 10 samples.

Results

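The ligands and receptors of axon guidance were followed across lymphatic and blood endothelium. This set of 66 genes was chosen with earlier results of these data known, and symbol alone decided which genes belong to it. All rows of the count table named as an A or B ephrin (Efn), an Eph receptor (Eph) or a semaphorin of classes 3 to 7 (Sema) were taken. So were all rows named as a plexin (Plxn), a Slit, a Robo, a netrin of the series Ntn1 to Ntn5 or an Unc5 receptor. They are 66 of the 23284 gene symbols counted, namely 8 ephrins, 14 Eph receptors, 20 semaphorins, 9 plexins, 3 Slits, 4 Robos, 4 netrins and 4 Unc5 receptors. RNA-seq had been made of endothelial cells from wild-type C57BL/6 mice, an inbred laboratory strain, of 6 to 8 weeks of age that had received no treatment named in the labels. CD45-negative, CD31-positive cells were sorted for podoplanin (PDPN), which lymphatic endothelium carries and blood endothelium lacks. Lymph nodes, skin-draining and mesenteric, gave 4 libraries of lymphatic endothelium (LN-LEC) and 3 of blood endothelium (LN-BEC), and the diaphragm gave 3 of lymphatic endothelium (D-LEC). Each library pooled cells of several mice, lymph nodes of several sites were mixed, and the labels give neither a sorting day nor a pairing, so that the spread between libraries is a spread between pools. The LN-LEC and D-LEC differ in organ and LN-LEC and LN-BEC in vessel type, while D-LEC and LN-BEC differ in both, so that in that comparison organ and vessel type cannot be told apart.

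Axon guidance cues were first described as signals that attract or repel growing axons, and endothelial cells use the same proteins for sprouting, junctions and vessel identity. Semaphorins signal through plexins, with neuropilins (Nrp1, Nrp2) as co-receptors for most secreted class 3 members. Ephrins signal to Eph receptors on neighbouring cells and also signal back into the cell that carries them, Slits bind Robos, and netrins bind Unc5 receptors and the Dcc and Neo1 receptors. In lymphatic vessels, ephrin-B2 with EphB4 and Sema3a with Nrp1 and plexin A1 are known for their part in the valves.

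The libraries held 22429940 to 48906070 counted fragments, of which the 66 genes took 0.263% to 0.48%. Levels below are counts divided by DESeq2 size factors (normalized counts), and where genes are compared with each other the level is divided by the exon length in kilobases. At these depths a count of 3 fragments corresponds to a normalized count of 1.89 to 3.89. The labels were checked on marker genes: the summed level of 6 lymphatic markers (Prox1, Lyve1, Pdpn, Reln, Flt4 and Mmrn1) lay between 134735 and 151725 in LN-LEC, between 598942 and 622973 in D-LEC, and at 4850, 3240 and 10199 in LN-BEC replicates 1, 2 and 3. Summed over 6 genes of high endothelial venules, the level was 2160250 to 2925560 in LN-BEC, 70500 to 97320 in LN-LEC and 586 to 1292 in D-LEC. Markers of skeletal muscle (7 genes, summed level 946 to 1348) and mesothelium (5 genes, 587 to 1817) were higher in D-LEC than in the lymph node libraries, where they reached 16.6 and 131. Fibroblast and pericyte markers (9 genes) summed to 2130 to 5565 in D-LEC, 6317 to 10397 in LN-LEC and 6292 to 11082 in LN-BEC. Within this list the means of Rgs5 were 66.4 in D-LEC, 3856 in LN-LEC and 4393 in LN-BEC. In the same order, those of Pdgfra (98.4, 186 and 223) and Lum (287, 316 and 384) were also lowest in D-LEC. So were those of Pdgfrb, Des and Acta2. Those of the fibroblast genes Dcn (2832, 3376 and 2535) and Col1a1 (450, 445 and 518), and of Cspg4, were not lowest in D-LEC. Of the 13 marker lists, 1 gene of the muscle list was at 0 in LN-BEC and no other gene was at 0 in a population. Within populations, LN-LEC replicate 4 and LN-BEC replicate 3 differed most from the others, with a chi-square of counts per gene of 119 to 155 and 314 to 391 against 10.5 to 42.1 for the remaining pairs. The labels give no batch for these libraries, and whether they share one was not tested. In bulk samples, fewer cells of a type and less RNA per cell cannot be told apart.

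Of the 66 genes, 65 had a mean normalized count of at least 1 in at least 1 population and were tested; Epha8, with 1 fragment in all 10 libraries, was not. Between LN-LEC and D-LEC, 38 of the 65 (58.5%) were called at an adjusted p under 0.05 by edgeR's quasi-likelihood F test, with Benjamini-Hochberg adjustment over all 15331 genes tested; 45.8% of all genes tested were called. A log2 fold change is positive where the population named first is higher. Of the 38, 23 were higher in LN-LEC (35.4% of the 65, background 24.1%) and 15 in D-LEC (23.1% of the 65, background 21.7%). Between LN-LEC and LN-BEC, 42 (64.6%) were called against 38.2% of all genes. Of these, 22 were higher in LN-LEC (33.8% of the 65, background 19.8%) and 20 in LN-BEC (30.8% of the 65, background 18.4%). Between D-LEC and LN-BEC, 45 (69.2%) were called against 48.1% of all genes. Of these, 20 were higher in D-LEC (30.8% of the 65, background 22.5%) and 25 in LN-BEC (38.5% of the 65, background 25.6%). The median absolute log2 fold change of the 65 genes was 1.43, 1.29 and 1.48 in these 3 comparisons, and 0.52, 0.43 and 0.58 over all genes tested. With the 5 genes at 0 in D-LEC set to the limit that a count of 0 allows, the first and last of these medians were 1.18 and 1.28. The comparisons share libraries, and each is given here for itself. At a tested minimum fold of 1.5 the calls were 24, 32 and 37, and with LN-LEC replicate 4 and LN-BEC replicate 3 both left out they were 35, 44 and 43. The share of all genes called at these settings is not given here, so these counts cannot be set against a background.

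In 14 of the 65 genes (21.5%) every LN-LEC library lay above every other library (background 11.2% of all genes tested). In 17 (26.2%) every LN-BEC library did (background 14.1%), and in 11 (16.9%) every D-LEC library did (background 16.9%). The number of genes in the D-LEC set is thus that of the background. The LN-LEC set held Sema3a, Sema3b, Sema3d, Sema4g, Sema5a, Slit1, Slit2, Robo1, Ntn4, Unc5a, Unc5c, Efna2, Efna4 and Ephb2. The LN-BEC set held Sema3c, Sema3g, Sema5b, Sema6b, Sema6d, Sema7a, Plxna2, Plxnb1, Plxnb2, Plxnc1, Plxnd1, Slit3, Robo2, Robo4, Efnb1, Epha4 and Epha6. The D-LEC set held Ntn1, Sema3f, Sema4d, Sema6a, Efna1, Efna5, Efnb3, Epha1, Epha2, Ephb1 and Ephb4. Thus 5 of the 9 plexins stood highest in LN-BEC, and none stood highest without overlap in either lymphatic population. Not every gene of these sets was called in both of its comparisons. In the LN-LEC set, Efna2, Efna4, Sema3a and Sema3d were not called against D-LEC (edgeR adjusted p = 0.0691, 0.114, 0.129 and 0.284). Ephb2 and Sema5a were not called against LN-BEC (0.0651 and 0.145). In the LN-BEC set, Plxnb1 and Plxnb2 were not called against LN-LEC (0.0729 and 0.121), nor Sema5b against D-LEC (0.36).

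**Figure D1:**
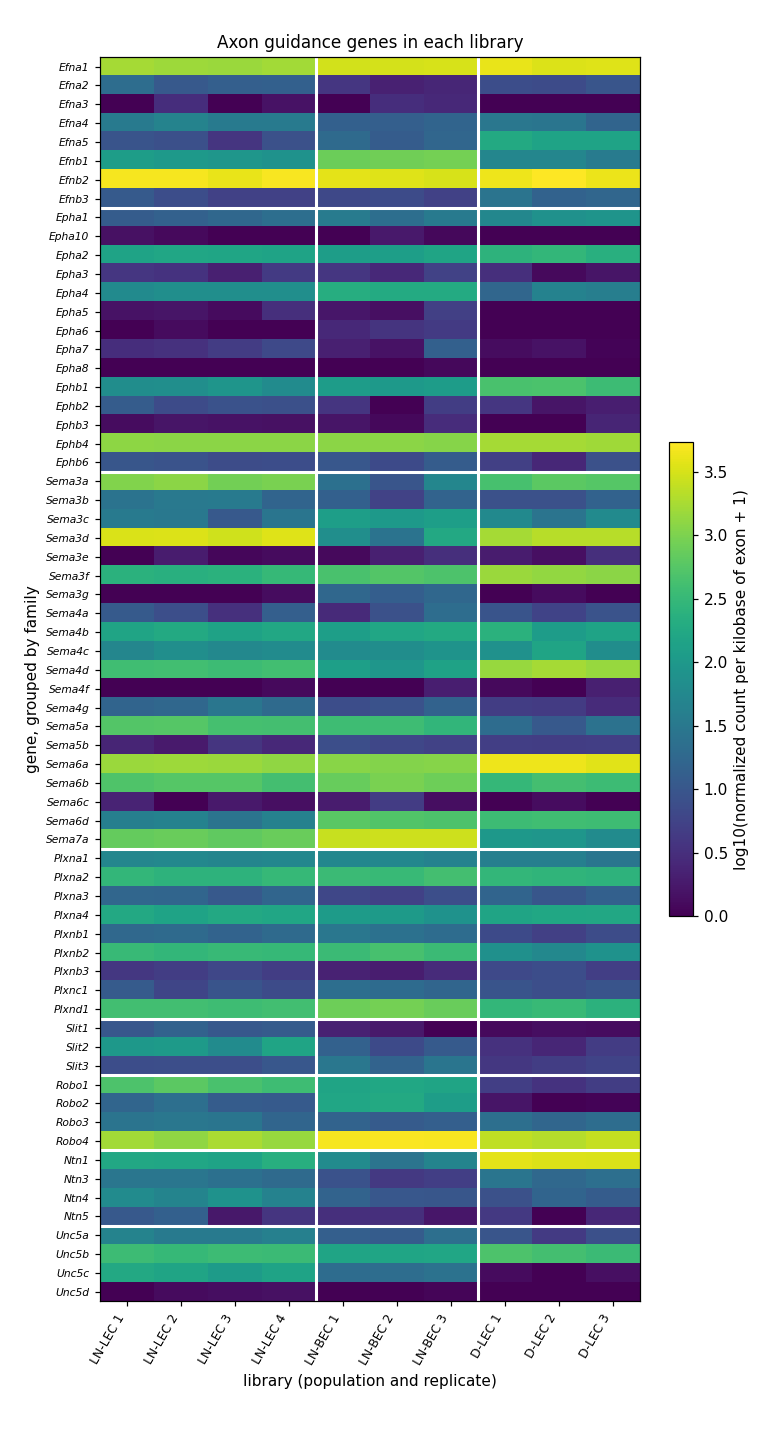
Level of each of the 66 genes (rows, grouped by family) in each of the 10 libraries (columns), as log10 of the normalized count per kilobase of exon plus 1; white lines part families and populations. Libraries of a population look alike, and rows such as Ntn1, Robo2, Sema3d and Sema7a change between populations.

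Semaphorins were the most abundant ligand family in LN-LEC and D-LEC, and their make-up differed between all 3 populations. Per kilobase of exon, the summed semaphorin level was 8522 ± 467 in the 4 LN-LEC libraries (mean ± SD), 6759 ± 171 in the 3 of LN-BEC and 10747 ± 633 in the 3 of D-LEC, next to ephrin sums of 6446 ± 508, 7507 ± 129.5 and 8628 ± 541. Sema3d held 39% ± 2.15 of the semaphorin sum in LN-LEC, Sema7a 41.1% ± 0.921 of that in LN-BEC and Sema6a 38.7% ± 2.32 of that in D-LEC (means of the library shares, with SD). Secreted class 3 semaphorins, 7 genes, summed to 4663 ± 376 in LN-LEC and 3939 ± 249 in D-LEC but 761 ± 103 in LN-BEC. Of the 20 semaphorins, 11 were called between LN-LEC and D-LEC (5 higher in LN-LEC), next to 45.8% of all genes tested. Between LN-LEC and LN-BEC 13 were called (6 higher in LN-LEC), next to 38.2% of all genes. Between D-LEC and LN-BEC 12 were called (5 higher in D-LEC), next to 48.1%.

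Sema3a and Sema3d, secreted repellents that signal through neuropilins and A plexins, were high in both lymphatic populations and low in LN-BEC. Sema3d had normalized counts of 21819.5, 22179, 19276 and 23407 in the LN-LEC libraries, 457, 164 and 1149 in those of LN-BEC and 10957, 14166 and 13849 in those of D-LEC. Normalized counts of Sema3a were 7831, 8792, 6386 and 7123 in the LN-LEC libraries, 168, 62.3 and 373 in those of LN-BEC and 3182, 4587 and 4103 in those of D-LEC. All lymphatic libraries lay far above all LN-BEC libraries, and among the lymphatic libraries all 4 of LN-LEC lay above all 3 of D-LEC in both genes. Sema3d had a log2 fold change of 5.22 ± 0.66 between LN-LEC and LN-BEC (SE, edgeR adjusted p = 0.00038), and 4.46 ± 0.64 (edgeR adjusted p = 0.000702) in D-LEC over LN-BEC. Sema3a had a log2 fold change of 5.26 ± 0.57 between LN-LEC and LN-BEC (SE, edgeR adjusted p = 0.000147), and 4.31 ± 0.56 (edgeR adjusted p = 0.000352) in D-LEC over LN-BEC. Both genes thus passed in both comparisons with blood endothelium. Between the lymphatic populations the fit to all 10 libraries gave a log2 fold change of 0.95 ± 0.46 (SE, edgeR adjusted p = 0.129) for Sema3a and a log2 fold change of 0.76 ± 0.53 (SE, edgeR adjusted p = 0.284) for Sema3d, neither of which passed. With LN-BEC left out of that fit the log2 fold changes were 0.93 (edgeR adjusted p = 8.8e-05) and 0.74 (edgeR adjusted p = 0.000106), and over all 19 alternatives the adjusted p ranged from 8.8e-05 to 0.378 for Sema3a and from 0.000106 to 0.658 for Sema3d. Within LN-BEC both genes were lowest in replicate 2 and highest in replicate 3, as was the summed level of the lymphatic markers given above; the part of lymphatic cells in these LN-BEC values was not tested.

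Sema3d, Sema3a and Sema3e follow each other on chromosome 5 (mm9: Sema3d 12383166 to 12588943, Sema3a 13396784 to 13603485, Sema3e 14025276 to 14256689, all on the plus strand), with gaps of 807840 and 421790 bases. Sema3e, which binds Plxnd1 without a neuropilin, was near the detection limit throughout: its normalized count was 0, 6.35, 1.13 and 1.89 in the LN-LEC libraries, 1.75, 7.78 and 14.7 in those of LN-BEC and 6.31, 3.01 and 14.9 in those of D-LEC. It thus did not share the level of its neighbours, and none of its 3 comparisons passed (edgeR adjusted p 0.144, 0.174 and 0.977). The 250 bases before the outermost annotated start of Sema3a and Sema3d are shown because both genes share the pattern; CpG dinucleotides are in capitals, and the sequences run 5′ to 3′ on the plus strand of mm9 (chr5:13396534-13396783 and chr5:12382916-12383165).
Sema3a: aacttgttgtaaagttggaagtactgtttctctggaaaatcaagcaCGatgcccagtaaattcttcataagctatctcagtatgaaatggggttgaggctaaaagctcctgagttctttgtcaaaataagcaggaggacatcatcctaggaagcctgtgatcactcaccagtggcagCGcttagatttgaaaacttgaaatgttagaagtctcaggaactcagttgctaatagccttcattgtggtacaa
Sema3d: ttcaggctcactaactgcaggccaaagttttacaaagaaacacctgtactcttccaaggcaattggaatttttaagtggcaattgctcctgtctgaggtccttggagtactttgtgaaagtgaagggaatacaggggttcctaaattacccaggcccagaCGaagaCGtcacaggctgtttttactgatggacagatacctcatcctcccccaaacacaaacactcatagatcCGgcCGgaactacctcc
They hold 2 and 4 CpG dinucleotides, where the median of the 66 genes is 17 and that of all 19395 promoters of this length read from the genome is 11. E-box letters (CANNTG, searched on both strands) occur 1 time before Sema3a and 3 times before Sema3d, and in 61.2% of all promoters.

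The other class 3 members went different ways. Sema3f, a ligand of Nrp2, was highest in D-LEC: its normalized count was 818, 767, 815 and 1057 in the LN-LEC libraries, 1563, 1838 and 1688 in those of LN-BEC and 5052, 4513 and 4116 in those of D-LEC. No library overlapped between populations. Sema3f had a log2 fold change of -2.37 ± 0.12 between LN-LEC and D-LEC (SE, edgeR adjusted p = 1.7e-09), -0.95 ± 0.12 (edgeR adjusted p = 1.46e-05) between LN-LEC and LN-BEC, and 1.42 ± 0.13 (edgeR adjusted p = 4.7e-07) between D-LEC and LN-BEC. Sema3g, known from arterial endothelium, was read almost only in LN-BEC. Sema3g was counted at 0, 0, 0 and 1.26 in the LN-LEC libraries, 60.4, 44.1 and 60.9 in those of LN-BEC and 0, 1 and 0 in those of D-LEC. The raw counts behind these were 2 fragments in all LN-LEC libraries, 178 in LN-BEC and 1 in D-LEC. The ratios of LN-BEC to LN-LEC and to D-LEC were 110 and 164 with 95% counting intervals of 30.1 to 919 and 29.1 to 6530, which cover counting error only. All 3 LN-BEC libraries thus stood apart. edgeR's adjusted p was 5.25e-06 against LN-LEC and 1.09e-05 against D-LEC. The 6 arterial markers had summed levels of 17706 to 18458 in D-LEC, 15939 to 17315 in LN-BEC and 6308 to 7955 for LN-LEC: by mean level, Gja5 and Sox17 were highest in LN-BEC, Hey1, Dll4 and Bmx in D-LEC, and Gja4 in LN-LEC. The part of arterial cells in the Sema3g level was not tested. Sema3c, which binds both neuropilins, was also highest in LN-BEC, with 516 to 614 against 49.8 to 167 in LN-LEC and 131 to 303 in D-LEC. Its libraries in LN-BEC lay above all others. The call of Sema3c between D-LEC and LN-BEC (edgeR adjusted p = 0.0249) was lost at a minimum fold of 1.5 (0.0915). It was also lost without LN-BEC replicate 1 (0.0636) or 3 (0.0521) or D-LEC replicate 1 (0.0504) or 2 (0.0562). With LN-LEC replicate 4 and LN-BEC replicate 3 both left out it did not pass either (0.0821). Sema3b, also secreted, was highest in LN-LEC by a narrow margin, with 50.9 to 114 there, 15.6 to 50.4 in LN-BEC and 25.2 to 47.9 in D-LEC. Its calls against LN-BEC and D-LEC (edgeR adjusted p = 0.0271 and 0.0142) were both lost at a minimum fold of 1.5 (0.104 and 0.0588), the first also without LN-LEC replicate 2 (0.0659) or 3 (0.0733) or LN-BEC replicate 2 (0.0908), the second without D-LEC replicate 1 (0.0556) or 2 (0.0552).

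Sema7a, a membrane-anchored ligand of Plxnc1 and of integrins, differed in all 3 comparisons. Sema7a had normalized counts of 2302, 2477, 2163 and 2499.5 in the LN-LEC libraries, 8603, 9334 and 9350 in those of LN-BEC and 323, 299.6 and 202 in those of D-LEC. The populations did not overlap, with LN-BEC highest and D-LEC lowest. Sema7a had a log2 fold change of 3.13 ± 0.14 between LN-LEC and D-LEC (SE, edgeR adjusted p = 7.46e-10), -1.93 ± 0.12 (edgeR adjusted p = 2.67e-08) between LN-LEC and LN-BEC, and -5.06 ± 0.16 (edgeR adjusted p = 2.53e-11) between D-LEC and LN-BEC. Sema5a, a transmembrane semaphorin with thrombospondin repeats, was a lymph node gene in both vessel types: its normalized count was 5930.3, 6063, 4599 and 4495 in the LN-LEC libraries, 4102, 4105 and 3063 in those of LN-BEC and 214, 107 and 264 in those of D-LEC. All 7 lymph node libraries lay above all D-LEC libraries. Sema5a had a log2 fold change of 4.77 ± 0.31 between LN-LEC and D-LEC (SE, edgeR adjusted p = 9.97e-07), and -4.27 ± 0.31 (edgeR adjusted p = 1.9e-06) between D-LEC and LN-BEC, while LN-LEC and LN-BEC, whose libraries did not overlap, differed by a log2 fold change of 0.50 ± 0.25 (SE, edgeR adjusted p = 0.145). This difference passed with only these populations fitted (edgeR adjusted p = 0.0233) and without D-LEC replicate 2 (edgeR adjusted p = 0.0192).

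Among transmembrane class 6 semaphorins, which bind A plexins without neuropilins, Sema6a and Sema6d moved apart. Normalized counts of Sema6a were 10358, 10454, 10431 and 8953 in the LN-LEC libraries, 8123, 7499 and 7815 in those of LN-BEC and 30077, 30340.5 and 25690.2 in those of D-LEC. D-LEC stood far above both lymph node populations, and LN-LEC stood a little above LN-BEC without overlap. Sema6a had a log2 fold change of -1.49 ± 0.09 between LN-LEC and D-LEC (SE, edgeR adjusted p = 1.2e-08), 0.38 ± 0.09 (edgeR adjusted p = 0.00442) between LN-LEC and LN-BEC, and 1.87 ± 0.10 (edgeR adjusted p = 2.86e-09) between D-LEC and LN-BEC; the middle call was lost at a minimum fold of 1.5. Sema6d was counted at 259, 292, 172 and 281 in the LN-LEC libraries, 3905, 3409.9 and 3159 in those of LN-BEC and 2344, 2549.9 and 2483 in those of D-LEC. Here LN-LEC was the low population, below both others. Sema6d had a log2 fold change of -3.27 ± 0.15 between LN-LEC and D-LEC (SE, edgeR adjusted p = 1.15e-09), -3.78 ± 0.15 (edgeR adjusted p = 5.18e-10) between LN-LEC and LN-BEC, and -0.51 ± 0.15 (edgeR adjusted p = 0.012) between D-LEC and LN-BEC; the last call was lost without LN-BEC replicate 1 (edgeR adjusted p = 0.0556) and at a minimum fold of 1.5. Sema6b was highest in LN-BEC (2969 to 3781), then LN-LEC (1652 to 2253), then D-LEC (1239 to 1623), with every comparison called, though at a minimum fold of 1.5 neither call of LN-LEC passed.

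The class 4 semaphorins are transmembrane ligands, several of them known from immune cells. The summed class 4 level was 1804 ± 153 per kilobase in D-LEC against 639.5 ± 43 in LN-LEC and 366 ± 65.9 for LN-BEC, and most of it in D-LEC was Sema4d. Sema4d, also called CD100, a ligand of Plxnb1, had 6296, 7424 and 6323 in D-LEC against 1709.7, 1769.7, 1588 and 1764 in LN-LEC and 553, 398 and 621 for LN-BEC. No library overlapped between populations, with a log2 fold change of -1.95 ± 0.13 (SE, edgeR adjusted p = 2.31e-08) between LN-LEC and D-LEC and a log2 fold change of 3.67 ± 0.15 (SE, edgeR adjusted p = 2.22e-10) between D-LEC and LN-BEC. Sema4b was called in none of the comparisons, with population means of 641, 616 and 668, while Sema4f and Sema6c had at most 10.4 in every library. Of the remaining members, Sema4a ran from 6.13 to 70.4, Sema4c from 193 to 566, Sema4g from 8.26 to 119.9 and Sema5b from 3.81 to 31.5 over all libraries.

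**Figure D2:**
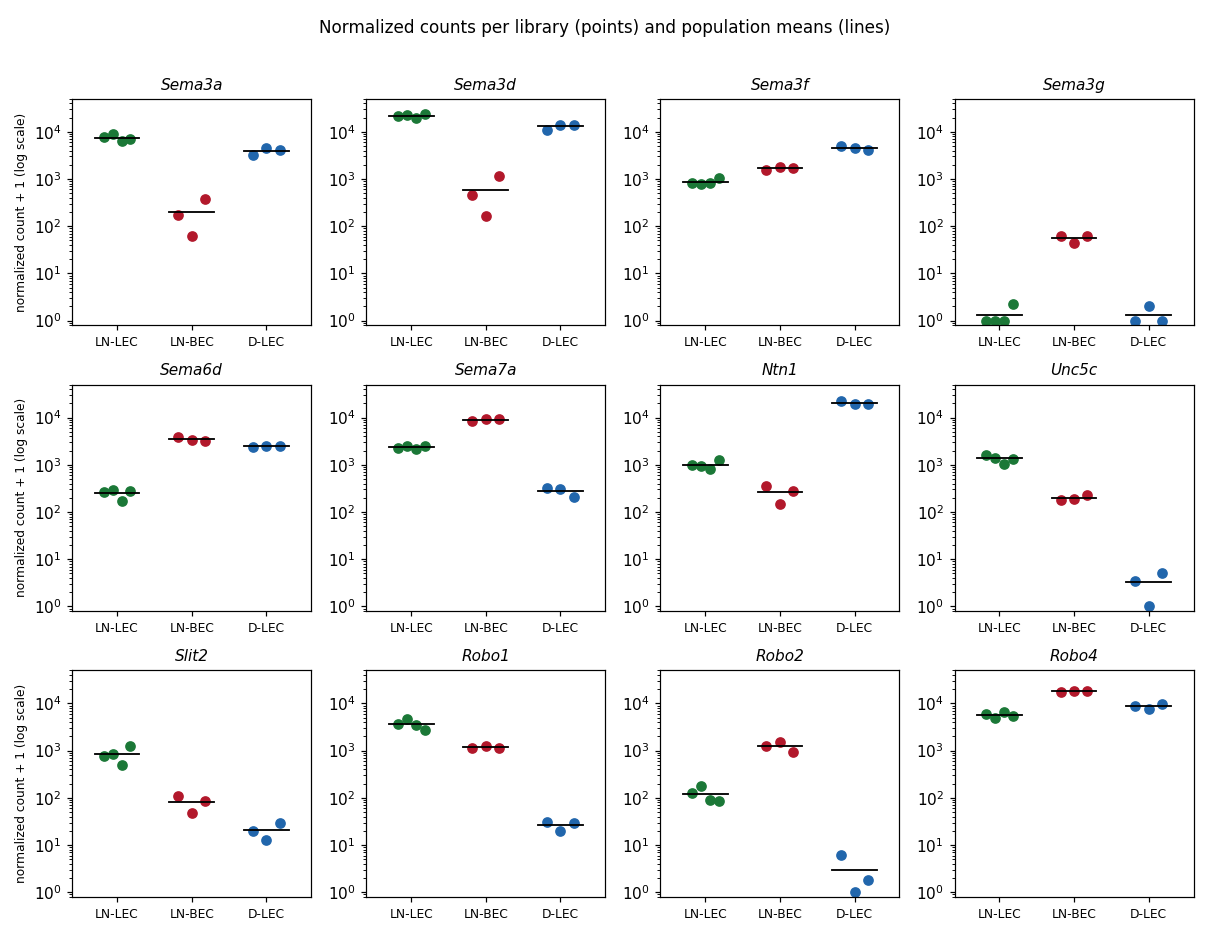
Normalized count plus 1 (log axis) of 12 genes in each library; points are libraries and lines are population means, for LN-LEC (green, 4 libraries), LN-BEC (red, 3) and D-LEC (blue, 3). Sema3a and Sema3d are low in LN-BEC alone, Ntn1 lies between 19188 and 22088 in D-LEC, and Unc5c, Robo1 and Robo2 have normalized counts of at most 30.3 there.

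The plexins, receptors of the semaphorins, were highest in LN-BEC as a family. Their summed level per kilobase was 1766 ± 93.6 in LN-BEC, 1258 ± 49.6 in LN-LEC and 869.6 ± 41.7 in D-LEC, and the libraries of the 3 populations did not overlap. All 9 plexins were called between D-LEC and LN-BEC (6 higher in LN-BEC), next to 48.1% of all genes tested. Between LN-LEC and LN-BEC 6 were called (3 higher in each), next to 38.2%. Between LN-LEC and D-LEC 4 were called, all higher in LN-LEC, next to 45.8%. Of the 9 calls between D-LEC and LN-BEC, that of Plxna1 was lost without LN-BEC replicate 1 (edgeR adjusted p = 0.0509) or 2 (0.0571). It was also lost without D-LEC replicate 3 (0.0621). At a minimum fold of 1.5 those of Plxna1, Plxna2 and Plxna4 were lost. Plxnd1, an endothelial receptor of Sema3e, had the highest mean share of the plexin sum per kilobase in each population, but in D-LEC its share (33.7% ± 3.06) and that of Plxna2 (31.7% ± 1.21) did not differ beyond their spread. Plxnd1 had normalized counts of 2783, 2724, 2580.3 and 2774 in the LN-LEC libraries, 5529, 6151 and 5232 in those of LN-BEC and 2069.8, 2266 and 1748 in those of D-LEC. LN-BEC stood highest and the populations did not overlap. Plxnd1 had a log2 fold change of 0.44 ± 0.10 between LN-LEC and D-LEC (SE, edgeR adjusted p = 0.00206), -1.04 ± 0.10 (edgeR adjusted p = 9.84e-07) between LN-LEC and LN-BEC, and -1.48 ± 0.10 (edgeR adjusted p = 5.08e-08) between D-LEC and LN-BEC; the first call was lost at a minimum fold of 1.5. Its ligand Sema3e was, as given above, near the detection limit in all libraries.

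The 3 B plexins, among them receptors of class 4 semaphorins, were low in D-LEC as a sum. It was 80.7 ± 12.8 per kilobase in D-LEC against 341 ± 12.8 in LN-LEC and 409 ± 49.6 for LN-BEC. Plxnb2 carried most of it, with 489, 363 and 521 in D-LEC, 2136, 1970.2, 2185 and 2098 in LN-LEC and 2326, 2895 and 2321 in LN-BEC, and a log2 fold change of 2.22 ± 0.13 (SE, edgeR adjusted p = 8.76e-09) between LN-LEC and D-LEC. Plxnb1 ran the same way (35.1 to 55.4 in D-LEC, 123 to 161 in LN-LEC, 172 to 255 in LN-BEC), whereas the scarce Plxnb3 had 24 to 40.1 in D-LEC and 6.05 to 11.6 in LN-BEC. Thus Sema4d was highest where its receptor Plxnb1 was lowest. The A plexins, which pair with neuropilins, varied little as a sum: 516 ± 33.8 in LN-LEC, 522 ± 27.7 for LN-BEC and 488 ± 16.5 for D-LEC. Plxna2 and Plxna4 were the most abundant of them per kilobase, and Plxna4 was lower in LN-BEC (997 to 1403) than in LN-LEC (1819 to 2269) and D-LEC (1909.6 to 2185), whereas Plxna2 was highest in LN-BEC. Plxna1 ran from 249.5 to 494 and Plxna3 from 29.4 to 110.2 over all libraries. Plxnc1, the receptor of Sema7a, was higher in LN-BEC (108 to 151) than in LN-LEC (35.5 to 75.2) and D-LEC (48.1 to 58), so that ligand and receptor were both highest in LN-BEC.

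The neuropilins, co-receptors of class 3 semaphorins and of vascular endothelial growth factors, are not among the 66 genes but bear on them. Normalized counts of Nrp1 were 887, 479, 534 and 795 in the LN-LEC libraries, 47089.8, 44379 and 45414 in those of LN-BEC and 131, 56.1 and 131 in those of D-LEC. Nrp1 was thus a gene of LN-BEC, at a log2 fold change of -6.06 ± 0.32 (SE, edgeR adjusted p = 3.85e-07) between LN-LEC and LN-BEC and a log2 fold change of -8.75 ± 0.42 (SE, edgeR adjusted p = 1.23e-07) between D-LEC and LN-BEC. Nrp2 was counted at 7315, 7221, 7941 and 6566 in the LN-LEC libraries, 7315, 7486 and 6974 in those of LN-BEC and 24355, 26922 and 22855 in those of D-LEC. Nrp2 was highest in D-LEC, at a log2 fold change of -1.75 ± 0.09 (SE, edgeR adjusted p = 2.56e-09) between LN-LEC and D-LEC and a log2 fold change of 1.76 ± 0.10 (SE, edgeR adjusted p = 4.56e-09) between D-LEC and LN-BEC, while LN-LEC and LN-BEC overlapped (log2 fold change 0.02 ± 0.09 (SE), edgeR adjusted p = 0.916). Sema3a, a ligand of Nrp1, was thus high in the populations with little Nrp1 RNA, and Sema3f, a ligand of Nrp2, was highest where Nrp2 was highest.

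Among ephrins, Efnb2 and Efna1 together made up most of the level in every population. Ephrin-B2, known from arteries and lymphatic valves, held 72.5% ± 1.29 of the ephrin sum per kilobase in LN-LEC, 46.8% ± 3.2 for LN-BEC and 53.8% ± 5.29 for D-LEC. Efnb2 had normalized counts of 20614, 20722, 17544 and 21909.7 in the LN-LEC libraries, 16317, 15425 and 13793 in those of LN-BEC and 18743, 23460.2 and 18089 in those of D-LEC. The lymphatic populations overlapped, and both lay above LN-BEC by a small step. Efnb2 had a log2 fold change of 0.43 ± 0.11 between LN-LEC and LN-BEC (SE, edgeR adjusted p = 0.00874), 0.40 ± 0.12 (edgeR adjusted p = 0.0148) between D-LEC and LN-BEC, and 0.03 ± 0.11 (edgeR adjusted p = 0.871) between LN-LEC and D-LEC. Both calls were lost at a minimum fold of 1.5, the call of D-LEC against LN-BEC also without LN-BEC replicate 3 (edgeR adjusted p = 0.0597) or D-LEC replicate 2 (edgeR adjusted p = 0.0808), and that of LN-LEC against LN-BEC with LN-LEC replicate 4 and LN-BEC replicate 3 both left out (edgeR adjusted p = 0.0636). Efna1, a lipid-anchored ligand of Epha2, was lower in LN-LEC (2479 to 2771) than in LN-BEC (4892 to 5280) and D-LEC (5616 to 6764).

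Efnb1 and Efna5 had the largest called changes among ephrins. Normalized counts of Efnb1 were 391, 326, 294 and 261 in the LN-LEC libraries, 2587, 2752 and 2964 in those of LN-BEC and 168, 163 and 112 in those of D-LEC. Ephrin-B1 was thus highest in LN-BEC and lowest in D-LEC, without overlap. Efnb1 had a log2 fold change of 1.13 ± 0.16 between LN-LEC and D-LEC (SE, edgeR adjusted p = 6.02e-05), -3.11 ± 0.15 (edgeR adjusted p = 1.76e-09) between LN-LEC and LN-BEC, and -4.24 ± 0.18 (edgeR adjusted p = 2.97e-10) between D-LEC and LN-BEC. Efna5 was counted at 44.1, 38.1, 14.7 and 39.6 in the LN-LEC libraries, 96.3, 57.9 and 86.1 in those of LN-BEC and 971, 759 and 762 in those of D-LEC. Ephrin-A5, a lipid-anchored ligand, was far higher in D-LEC, and LN-BEC lay above LN-LEC without overlap. Efna5 had a log2 fold change of -4.57 ± 0.27 between LN-LEC and D-LEC (SE, edgeR adjusted p = 2.59e-08), -1.20 ± 0.28 (edgeR adjusted p = 0.00419) between LN-LEC and LN-BEC, and 3.37 ± 0.28 (edgeR adjusted p = 4.94e-07) between D-LEC and LN-BEC. Of the 8 ephrins, 4 were called in LN-LEC against D-LEC (3 of the 4 higher in D-LEC), next to 45.8% of all genes tested. In LN-LEC against LN-BEC 6 were called (3 of the 6 higher in LN-LEC), next to 38.2%. In D-LEC against LN-BEC 6 were called (5 of the 6 higher in D-LEC), next to 48.1%. The remaining ephrins were scarce: Efna2 ran from 2.59 to 44.1, Efna4 from 19.9 to 72.4 and Efnb3 from 13.6 to 84.5 over all libraries, and Efna3 had at most 2.59 in any.

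Ephb4, the receptor of ephrin-B2 on veins and lymphatics, was the most abundant Eph receptor in every population. It held 78.6% ± 1.05 of the Eph sum per kilobase in LN-LEC, 70.5% ± 2.67 for LN-BEC and 67.7% ± 1.73 for D-LEC. Ephb4 had normalized counts of 5431, 5263, 5302 and 5239 in the LN-LEC libraries, 5222, 5342 and 4924 in those of LN-BEC and 7554, 7400.3 and 6927 in those of D-LEC. D-LEC lay above the other populations, which overlapped. Ephb4 had a log2 fold change of -0.44 ± 0.07 between LN-LEC and D-LEC (SE, edgeR adjusted p = 0.000188), 0.49 ± 0.08 (edgeR adjusted p = 0.000116) between D-LEC and LN-BEC, and 0.06 ± 0.07 (edgeR adjusted p = 0.585) between LN-LEC and LN-BEC; at a minimum fold of 1.5 neither of the first 2 passed. Ephb1, another receptor of B ephrins, was also highest in D-LEC, with 1708 to 2198 there, 289 to 409 in LN-LEC and 472 to 540.1 in LN-BEC, at a log2 fold change of -2.58 ± 0.13 (SE, edgeR adjusted p = 2.03e-09) between LN-LEC and D-LEC. Epha1 and Epha2 were also highest in D-LEC, Epha2 with 879 to 1147 against 564 to 644 in LN-LEC and 460.4 to 603 for LN-BEC. Epha4 went the other way: its normalized count was 386, 438, 439.9 and 444 in the LN-LEC libraries, 1322, 1209 and 1229 in those of LN-BEC and 101, 276 and 242 in those of D-LEC. It was a gene of LN-BEC without overlap, at a log2 fold change of -1.54 ± 0.24 (SE, edgeR adjusted p = 0.000367) between LN-LEC and LN-BEC and a log2 fold change of -2.59 ± 0.27 (SE, edgeR adjusted p = 1.56e-05) between D-LEC and LN-BEC.

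Several Eph receptors known mainly from neurons were read at low counts, mainly in lymph node endothelium. Epha5 had 36 fragments in LN-LEC, 40 for LN-BEC and 0 for D-LEC, and 27 of the 36 were in LN-LEC replicate 4 and 30 of the 40 in LN-BEC replicate 3. Epha6 had 34 fragments in LN-BEC, 1 in LN-LEC and 0 in D-LEC, at least 10.5-fold lower in D-LEC than in LN-BEC when 3 counts over the 3 libraries are taken as the limit. Neither receptor was thus read in the diaphragm. Most of the Epha7 and Epha5 level of LN-BEC came from replicate 3, with normalized counts of 8.75, 4.32 and 104 for Epha7 and 5.25, 3.46 and 31.5 for Epha5 in the 3 libraries. Schwann cell and nerve markers (6 genes) were also highest in that library, with summed levels of 220, 199 and 658 in LN-BEC replicates 1 to 3, and in LN-LEC they were highest in replicate 4 (339, against 150 to 241), as were Epha5 and Epha7; the part of nerve cells in these values was not tested. Without LN-BEC replicate 3, the call of Epha7 between D-LEC and LN-BEC was lost (edgeR adjusted p = 0.162, from 0.0204) and that between LN-LEC and LN-BEC turned from a log2 fold change of -0.44 (edgeR adjusted p = 0.737) to one of 2.09 (edgeR adjusted p = 0.0221). Its call between LN-LEC and D-LEC (edgeR adjusted p = 0.0325) was lost without D-LEC replicate 1 (edgeR adjusted p = 0.0977), and without others of these libraries as well. Ephb6 ran from 6.01 to 42, Ephb2 from 0 to 53.1, Ephb3 from 0 to 8.4, Epha3 from 1 to 17.9 and Epha10 from 0 to 4.32 over all libraries.

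**Figure D3:**
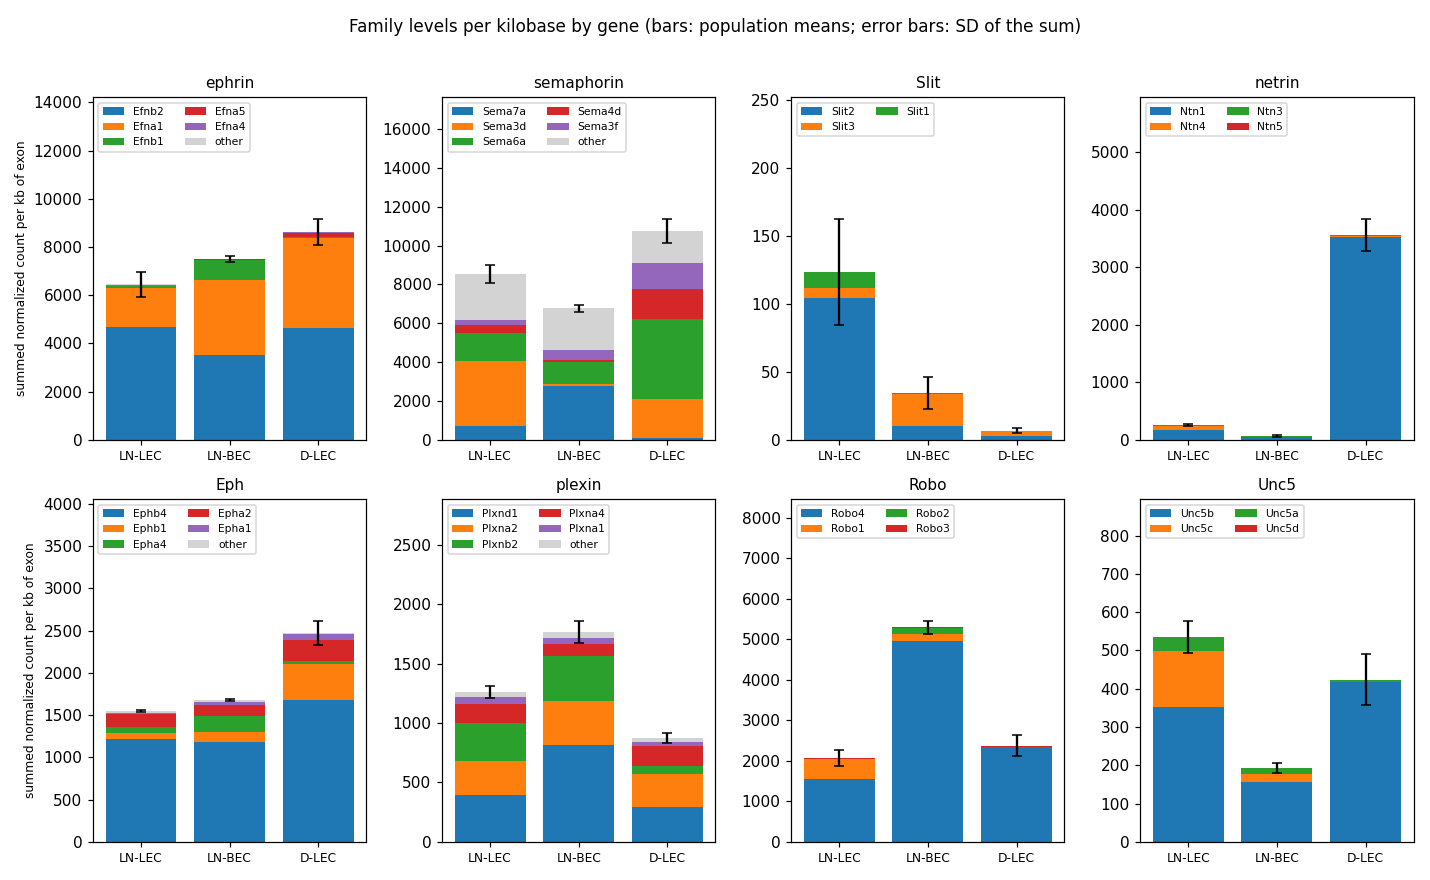
Summed normalized count per kilobase of exon (linear axis, own scale in each panel) of each family in the 3 populations, ligands in the upper row and their receptors below; colours are the leading genes, grey the remaining ones, and error bars are the SD of the sum over 4, 3 and 3 libraries. Ntn1 makes up the netrin bar of D-LEC, and the Slit bar is lowest there with a sum of 6.63.

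All 3 Slits, secreted ligands of the Robos, were lower in D-LEC than in LN-LEC, and the Slit sum was the smallest of the 8 families in every population. It was 123 ± 39.2 per kilobase in LN-LEC, 34.3 ± 11.8 for LN-BEC and 6.63 ± 1.67 for D-LEC. Slit2 held 84.3% ± 4.01 of it in LN-LEC, whereas Slit3 held 69.3% ± 3.1 in LN-BEC. Normalized counts of Slit2 were 778, 858, 494 and 1223 in the LN-LEC libraries, 107, 46.7 and 83 in those of LN-BEC and 18.9, 12 and 28.9 in those of D-LEC. LN-LEC lay above LN-BEC and LN-BEC above D-LEC, without overlap. Slit2 had a log2 fold change of 5.38 ± 0.46 between LN-LEC and D-LEC (SE, edgeR adjusted p = 7.21e-06), 3.43 ± 0.39 (edgeR adjusted p = 6.27e-05) between LN-LEC and LN-BEC, and -1.95 ± 0.49 (edgeR adjusted p = 0.0084) between D-LEC and LN-BEC. Slit1 was counted at 49.3, 72.4, 50.9 and 55.9 in the LN-LEC libraries, 6.13, 4.32 and 0 in those of LN-BEC and 1.26, 2 and 1.65 in those of D-LEC. Slit1 was thus near the detection limit outside LN-LEC. Slit1 had a log2 fold change of 5.02 ± 0.66 between LN-LEC and D-LEC (SE, edgeR adjusted p = 2.89e-05), 3.95 ± 0.59 (edgeR adjusted p = 9.53e-05) between LN-LEC and LN-BEC, and -1.07 ± 0.81 (edgeR adjusted p = 0.296) between D-LEC and LN-BEC, the last of which did not pass. Slit3 had normalized counts of 33.7, 34.3, 33.9 and 46.5 in the LN-LEC libraries, 146, 71.8 and 139 in those of LN-BEC and 15.1, 19 and 23.1 in those of D-LEC. Slit3 was highest in LN-BEC and lowest in D-LEC, without overlap. Slit3 had a log2 fold change of 0.97 ± 0.33 between LN-LEC and D-LEC (SE, edgeR adjusted p = 0.0277), -1.65 ± 0.30 (edgeR adjusted p = 0.000516) between LN-LEC and LN-BEC, and -2.62 ± 0.35 (edgeR adjusted p = 2.6e-05) between D-LEC and LN-BEC. The first of these calls was lost without LN-LEC replicate 4, the highest of its group (edgeR adjusted p = 0.0755), without D-LEC replicate 1 (edgeR adjusted p = 0.0907) and without D-LEC replicate 2 (edgeR adjusted p = 0.0647), with a range of 0.0147 to 0.166 over 19 alternatives.

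The Robo receptors had a different make-up in each population. Robo4, the endothelial Robo, held 74.7% ± 5.68 of the Robo sum per kilobase in LN-LEC, 93.9% ± 0.678 for LN-BEC and 99% ± 0.13 for D-LEC. Normalized counts of Robo4 were 5995, 4866, 6658 and 5400.1 in the LN-LEC libraries, 17726, 18797 and 18437 in those of LN-BEC and 8762, 7658 and 9517 in those of D-LEC. LN-BEC stood highest and LN-LEC lowest, without overlap. Robo4 had a log2 fold change of -0.57 ± 0.11 between LN-LEC and D-LEC (SE, edgeR adjusted p = 0.000658), -1.66 ± 0.11 (edgeR adjusted p = 3.53e-08) between LN-LEC and LN-BEC, and -1.09 ± 0.12 (edgeR adjusted p = 3.72e-06) between D-LEC and LN-BEC; the first call was lost at a minimum fold of 1.5.

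Robo1 and Robo2, the Slit receptors of axons, were lymph node genes with opposite order in the vessel types. Robo1 was counted at 3754, 4644, 3482 and 2799 in the LN-LEC libraries, 1135, 1263 and 1142 in those of LN-BEC and 30.3, 19 and 28.1 in those of D-LEC. Robo2 had normalized counts of 124, 178, 90.5 and 84.2 in the LN-LEC libraries, 1282, 1488 and 954 in those of LN-BEC and 5.05, 0 and 0.826 in those of D-LEC. Robo1 was highest in LN-LEC and Robo2 in LN-BEC, and in D-LEC Robo1 was low and Robo2 at 5 fragments in all 3 libraries. Robo1 had a log2 fold change of 7.17 ± 0.22 between LN-LEC and D-LEC (SE, edgeR adjusted p = 4.49e-11), 1.65 ± 0.15 (edgeR adjusted p = 1.32e-06) between LN-LEC and LN-BEC, and -5.52 ± 0.21 (edgeR adjusted p = 2.78e-10) between D-LEC and LN-BEC. Robo2 had a log2 fold change of 6.05 ± 0.60 between LN-LEC and D-LEC (SE, edgeR adjusted p = 1.11e-05), -3.39 ± 0.29 (edgeR adjusted p = 3.83e-06) between LN-LEC and LN-BEC, and -9.44 ± 0.54 (edgeR adjusted p = 1.04e-07) between D-LEC and LN-BEC. These genes lie 846205 bases apart on chromosome 16 (mm9: Robo1 72663394 to 73046345, plus strand; Robo2 73892551 to 74411157, minus strand), and their upstream sequences are shown since both genes were lowest in D-LEC (chr16:72663144-72663393, plus strand, and chr16:74411158-74411407, minus strand; 5′ to 3′ in the direction of the gene, CpG in capitals).
Robo1: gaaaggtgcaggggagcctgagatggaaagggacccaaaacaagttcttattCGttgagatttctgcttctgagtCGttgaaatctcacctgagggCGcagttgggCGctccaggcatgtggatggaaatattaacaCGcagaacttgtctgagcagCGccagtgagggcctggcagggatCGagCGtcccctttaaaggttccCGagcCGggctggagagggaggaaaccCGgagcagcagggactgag
Robo2: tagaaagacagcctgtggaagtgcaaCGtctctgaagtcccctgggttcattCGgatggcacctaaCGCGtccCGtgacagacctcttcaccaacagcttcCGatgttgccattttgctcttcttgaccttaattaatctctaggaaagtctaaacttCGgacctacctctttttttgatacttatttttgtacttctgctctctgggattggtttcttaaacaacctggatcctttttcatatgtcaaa
They hold 11 and 7 CpG dinucleotides and 3 and 1 E-box matches, and Robo2 has the letters of AGGTCA, read on the other strand, 126 bases before its start, letters found in 11.7% of all promoters. Robo3 and Robo4 lie on chromosome 9 with 2022 bases between them, and Robo3 was scarce throughout, with 73.6 to 137 in LN-LEC, 51 to 69.2 for LN-BEC and 75.1 to 106 for D-LEC. In the lymph nodes it was higher in LN-LEC (log2 fold change 0.97 ± 0.26 (SE), edgeR adjusted p = 0.00869; lost at a minimum fold of 1.5), the direction opposite to Robo4; strand was not used in counting, and no exon bases of the neighbours overlap.

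Ntn1 stood far higher in D-LEC than in either lymph node population. Netrin-1, a secreted ligand of Dcc, Neo1 and the Unc5 receptors, held 99% ± 0.0509 of the netrin sum per kilobase in D-LEC, 65.7% ± 7.96 in LN-LEC and 71.2% ± 6.85 in LN-BEC. Normalized counts of Ntn1 were 985, 922, 833 and 1259 in the LN-LEC libraries, 356, 150.5 and 274 in those of LN-BEC and 22088, 19525 and 19188 in those of D-LEC. The D-LEC libraries lay above all others, at 19.9 times the LN-LEC level and 77.6 times the LN-BEC level in the fit, and LN-LEC lay above LN-BEC. Ntn1 had a log2 fold change of -4.32 ± 0.26 between LN-LEC and D-LEC (SE, edgeR adjusted p = 4.38e-07), 1.96 ± 0.26 (edgeR adjusted p = 0.000189) between LN-LEC and LN-BEC, and 6.28 ± 0.32 (edgeR adjusted p = 1.09e-07) between D-LEC and LN-BEC. In D-LEC replicates 1, 2 and 3 the mesothelial markers summed to 1512, 587 and 1817 and the muscle markers to 946, 1194 and 1348; the part of these cells in the Ntn1 level was not tested. Netrin-4, a laminin-binding netrin, went the other way: its normalized count was 150.4, 114, 192 and 107 in the LN-LEC libraries, 35, 22.5 and 22.1 in those of LN-BEC and 17.7, 36.1 and 27.3 in those of D-LEC. It was highest in LN-LEC without overlap, and the other populations overlapped. Ntn4 had a log2 fold change of 2.38 ± 0.33 between LN-LEC and D-LEC (SE, edgeR adjusted p = 4.92e-05), 2.41 ± 0.33 (edgeR adjusted p = 4.78e-05) between LN-LEC and LN-BEC, and 0.03 ± 0.35 (edgeR adjusted p = 0.955) between D-LEC and LN-BEC. Ntn3 was lower in LN-BEC (15.6 to 37.6) than in LN-LEC (89.9 to 138) or D-LEC (83.2 to 132), and Ntn5 ran from 0 to 20.3 over all libraries.

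Among the netrin receptors, Unc5c was, unlike Ntn1, far lower in D-LEC than in LN-LEC. Unc5c was counted at 1653, 1415, 1033 and 1359.8 in the LN-LEC libraries, 182, 189 and 227 in those of LN-BEC and 2.52, 0 and 4.13 in those of D-LEC. All LN-LEC libraries lay above all LN-BEC libraries, and D-LEC had 7 fragments in all. Unc5c had a log2 fold change of 9.14 ± 0.34 between LN-LEC and D-LEC (SE, edgeR adjusted p = 2.98e-10), 2.79 ± 0.20 (edgeR adjusted p = 1.3e-07) between LN-LEC and LN-BEC, and -6.35 ± 0.38 (edgeR adjusted p = 1.9e-08) between D-LEC and LN-BEC. The first of these is the largest log2 fold change among the 65 genes in that comparison. Unc5b, the Unc5 receptor of endothelium, held 65.5% ± 4.02 of the Unc5 sum in LN-LEC, 81.1% ± 3.2 in blood endothelium and 98.4% ± 0.683 in the diaphragm: its normalized count was 2158, 1874, 2104 and 2083 in the LN-LEC libraries, 899, 909 and 944 in those of LN-BEC and 2834, 2434 and 2071 in those of D-LEC. It was higher in both lymphatic populations than in LN-BEC. Unc5b had a log2 fold change of 1.18 ± 0.10 between LN-LEC and LN-BEC (SE, edgeR adjusted p = 6.22e-07), 1.41 ± 0.11 (edgeR adjusted p = 1.24e-07) between D-LEC and LN-BEC, and -0.23 ± 0.10 (edgeR adjusted p = 0.076) between LN-LEC and D-LEC, which overlapped. Unc5a followed Unc5c at a lower level (129 to 181 in LN-LEC, 44.1 to 89.3 in LN-BEC, 13 to 34.1 in D-LEC), and Unc5d had 12 fragments in LN-LEC, 1 for LN-BEC and 0 for D-LEC. Of the other netrin receptors, Neo1 had 379.6 to 550.1 in LN-LEC, 509 to 650.4 for LN-BEC and 626 to 959 for D-LEC, and Dcc had at most 8.17 in any library. The upstream sequences of Ntn1 (chromosome 11, 68022866 to 68200328, minus strand) and Unc5c (chromosome 3, 141128528 to 141497886, plus strand), a ligand and a receptor with opposite order between the lymphatic populations, are shown 5′ to 3′ in the direction of the gene with CpG in capitals (mm9, chr11:68200329-68200578 and chr3:141128278-141128527).
Ntn1: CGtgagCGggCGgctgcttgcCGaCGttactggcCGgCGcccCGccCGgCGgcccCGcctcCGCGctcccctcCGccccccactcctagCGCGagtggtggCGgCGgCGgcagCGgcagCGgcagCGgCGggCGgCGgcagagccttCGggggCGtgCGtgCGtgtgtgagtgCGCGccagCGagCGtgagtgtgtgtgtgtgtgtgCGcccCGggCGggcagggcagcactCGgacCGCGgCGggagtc
Unc5c: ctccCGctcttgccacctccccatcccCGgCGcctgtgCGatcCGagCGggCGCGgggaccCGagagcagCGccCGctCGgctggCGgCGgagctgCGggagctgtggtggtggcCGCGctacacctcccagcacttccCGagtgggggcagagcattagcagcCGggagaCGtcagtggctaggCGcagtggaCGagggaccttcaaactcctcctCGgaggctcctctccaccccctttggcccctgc
They hold 40 and 23 CpG dinucleotides and no E-box letters. Over the 66 promoters E-box letters were found in 43.9%, AGGTCA in 13.6%, the Ets letters CCGGAAG in 3.03%, the GATA letters AGATAA in 3.03%, TATAAA in 1.52% and the forkhead letters GTAAACA in 0 of 66. Over all 19395 promoters the shares were 61.2%, 11.7%, 9.48%, 8.7%, 11.9% and 2.67%. These counts describe letters in a window and not sites in use.

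**Figure D4:**
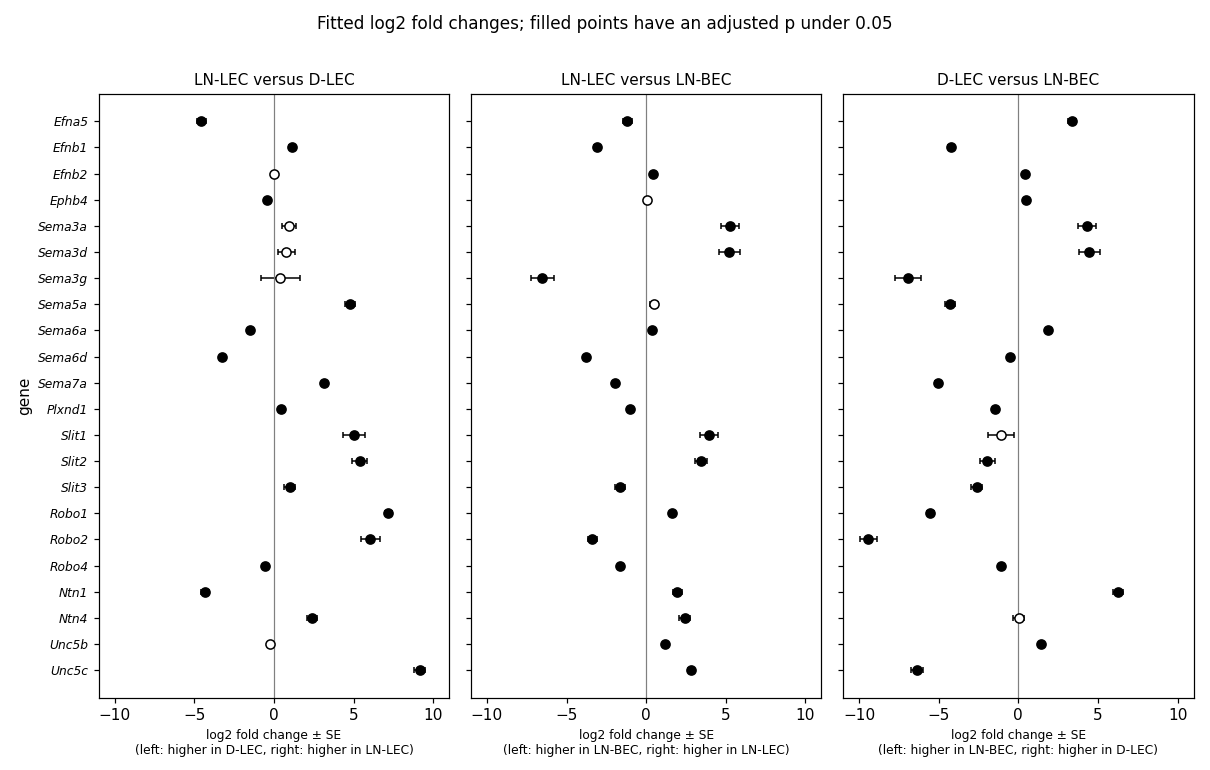
Log2 fold change with its SE (edgeR fit to all 10 libraries) of the 22 genes given per library, in the 3 comparisons; filled points have an adjusted p under 0.05 and open points do not. Unc5c at 9.14 and Robo1 at 7.17 lead towards LN-LEC in the left panel, and Robo2 at -9.44 leads towards LN-BEC in the right panel.

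Among partner genes of these pathways, 88 of 90 listed were tested, and 54, 46 and 52 of them (61.4%, 52.3% and 59.1%) were called in LN-LEC against D-LEC, LN-LEC against LN-BEC and D-LEC against LN-BEC, next to the background of 45.8%, 38.2% and 48.1%. Co-receptors and other receptors (17 tested) had 13, 6 and 10 calls, other guidance ligands (8 tested) 6, 5 and 4, and adaptors, kinases and cytoskeletal effectors (33 tested) 16, 21 and 22. Both receptors and regulators of the cytoskeleton were among the partners that changed most. Gpc1 had normalized counts of 6928, 6364, 7031 and 5093 in the LN-LEC libraries, 1837, 2091 and 2115 in those of LN-BEC and 78.2, 65.1 and 78.5 in those of D-LEC. Glypican-1, a heparan sulfate carrier that binds Slits, was thus a lymph node gene like Robo1, at a log2 fold change of 6.44 ± 0.16 (SE, edgeR adjusted p = 4.37e-12) between LN-LEC and D-LEC and a log2 fold change of -4.77 ± 0.15 (SE, edgeR adjusted p = 2.63e-11) between D-LEC and LN-BEC. Normalized counts of Tiam1 were 962, 833, 749.7 and 591 in the LN-LEC libraries, 133, 108 and 187 in those of LN-BEC and 22.7, 14 and 14 in those of D-LEC. Tiam1, an activator of Rac, had the order LN-LEC, LN-BEC, D-LEC, at a log2 fold change of 5.58 ± 0.28 (SE, edgeR adjusted p = 2.72e-09) between LN-LEC and D-LEC. Enah was counted at 88.1, 103, 76.9 and 73.6 in the LN-LEC libraries, 440.3, 437 and 309 in those of LN-BEC and 2.52, 5.01 and 12.4 in those of D-LEC. Enah, the actin regulator Mena, was highest in LN-BEC and under 13 in D-LEC, at a log2 fold change of -5.77 ± 0.37 (SE, edgeR adjusted p = 1.86e-08) between D-LEC and LN-BEC.

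Pak1, a kinase activated by Rac and Cdc42, had 286, 256, 260.1 and 225 in LN-LEC, 18.4, 13 and 26.3 for LN-BEC and 29, 31.1 and 15.7 for D-LEC, at a log2 fold change of 3.76 ± 0.30 (SE, edgeR adjusted p = 2.13e-07) between LN-LEC and LN-BEC. Pak1 was thus high in LN-LEC alone. The adhesion gene Dscaml1 was highest in LN-LEC at a low level, with 26 to 84.9 there, 1.73 to 6.3 for LN-BEC and 0 to 5.01 for D-LEC. Chl1, another adhesion gene, had 54.3 to 86.3 in LN-LEC and 2.52 to 4.01 for D-LEC, but 11.2 to 68.3 for LN-BEC, which overlapped LN-LEC (log2 fold change 1.02 ± 0.46 (SE), edgeR adjusted p = 0.0982). Grip2, an adaptor that binds B ephrins, had 66.2 to 116 in LN-BEC and at most 3.89 in the lymphatic libraries.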

How the data were processed

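RNA of sorted endothelial cells was measured by RNA-seq in 10 libraries of amplified cDNA, of which 4 were LN-LEC. The authors trimmed the paired reads, used STAR to align them to mm9 and featureCounts version 1.4.4 to count fragments per gene symbol, and deposited these raw counts. Fragments with more than 1 alignment were not counted and strand was not used. Counts of near-identical genes can therefore be too low, and amplification makes fragments no independent molecules, so intervals cover counting error only.

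From the deposited counts, 3801 predicted symbols were left out and the 15331 genes whose normalized count averaged 1 or more in any population were tested with edgeR 4.0.16 (R 4.3.3): TMM factors, 1 mean per population over all 10 libraries, robust quasi-likelihood F test, Benjamini-Hochberg adjustment over all genes, threshold 0.05. The SE of a log2 fold change is its size divided by the square root of F. Size factors for printed levels came from DESeq2 1.42.0, whose Wald test was an alternative. The steps were tested on simulated data. The spread is that between pools of mice, with n of 3 or 4. Values in every library are given for the 10 called genes with the largest change in each comparison (a mean of 50 or more, libraries apart), the most abundant ligand and receptor per kilobase of each family, and the 5 partners that changed most; others named outside this rule, such as Sema3f, Efna1 or Epha4, were chosen for their known roles or after their values were seen. The 66 genes, the partner and marker lists and this rule were chosen with earlier results of these data known. Positions are those of the exons listed beside the deposited counts, and upstream sequences were read at these positions from the mm9 genome. Results for a few partner genes are not reported here. Motifs were searched on both strands by letters, in Python 3.11.15.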

Additional observations from a re-analysis of the deposited data

Results flagged for a closer look

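In LN-LEC, the population with 4 libraries, 8 of the 65 tested genes had 1 library whose gap to the nearest other exceeded Dixon's 95% critical value; chance flags about 1 group in 20, and the populations of 3 libraries were not checked. Epha4 was lowest in replicate 1, with a normalized count of 386.3 against 438 to 443.8 in the others. Slit3 was highest in replicate 4, with 46.52 against at most 34.28. Sema6a was lowest in replicate 4, with 8953 against at least 10360. Efna4 was highest in replicate 2, with 72.36 against at most 54.44. Plxna3 was lowest in replicate 3, with 68.97 against at least 107.5. Sema3g and Sema4f were read in replicate 4 alone, each with 1.257, and Epha6 in replicate 2 alone, with 1.269, the level of 1 or 2 fragments. Replicate 4 was the most deeply sequenced LN-LEC library and holds 4 of the 8 values, those of Sema3g and Sema4f among them.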

How the results depend on the processing

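Over 19 alternatives (DESeq2's Wald test, other scaling factors, other filters, only the populations compared, a minimum fold, each library left out), the counts of called genes stayed within 1.5 times the reported ones except at a minimum fold of 1.5. There, the LN-LEC against D-LEC calls fell from 38 to 24 and those higher in LN-LEC from 23 to 14, and partner calls from 54, 46 and 52 to 30, 26 and 30, since small changes no longer pass. With single libraries left out, the calls were 32 to 38, 40 to 44 and 41 to 46 of the 65 genes and 47 to 54, 41 to 50 and 47 to 54 of the 88 partners, and 14 to 15 genes stood highest without overlap in LN-LEC, 17 to 18 in blood endothelium and 11 to 13 in diaphragm. No share over all genes is given for the alternatives, so these counts cannot be set against a background. Among the 22 genes given per library, directions turned only in differences not called in the reported fit; outside them, Epha7 between LN-LEC and LN-BEC turned from -0.44 to 2.09 without LN-BEC replicate 3 and then passed (edgeR adjusted p = 0.0221). With single libraries left out, Sema3g between LN-LEC and D-LEC ranged from -1.84 (without LN-LEC replicate 4; -0.16 without D-LEC replicate 3) to 2.30, Efnb2 from -0.042 (without D-LEC replicate 3; -0.02 and -0.03 without LN-LEC replicate 4 and D-LEC replicate 1) to 0.155, and Ntn4 between D-LEC and LN-BEC from -0.23 (without D-LEC replicate 2; -0.07 and -0.09 without LN-BEC replicates 2 and 3) to 0.285. With LN-LEC replicate 4 and LN-BEC replicate 3 both left out, these were -1.84, -0.031 and -0.058. The cause was not tested. No paired analysis was possible because the labels carry no numbers that tie libraries of different populations. Genes at a few fragments, such as Sema3g and Epha6, are limited by depth.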

Other observations

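Outside the 66 genes, 2 ligands of the partner list that bind Unc5 receptors, and L1cam and Rgma were looked at after their values were seen. Flrt2 had normalized counts of 11524, 9728, 6921 and 14492 in the LN-LEC libraries, 1345, 861 and 837 in those of LN-BEC and 2871, 3582 and 4435 in those of D-LEC. Normalized counts of Flrt3 were 4661, 4852, 4538 and 3715 in the LN-LEC libraries, 379, 314 and 481 in those of LN-BEC and 1681, 1630.1 and 1629 in those of D-LEC. Both membrane ligands were highest in LN-LEC and lowest in LN-BEC without overlap, at a log2 fold change of 1.57 ± 0.29 (SE, edgeR adjusted p = 0.00164) and a log2 fold change of 1.45 ± 0.13 (SE, edgeR adjusted p = 6.93e-07) between LN-LEC and D-LEC. L1cam was counted at 75.2, 76.2, 102 and 133 in the LN-LEC libraries, 135, 148 and 186 in those of LN-BEC and 769, 755 and 942 in those of D-LEC. L1cam, an adhesion protein of axons, was highest in D-LEC, at a log2 fold change of -3.04 ± 0.20 (SE, edgeR adjusted p = 2.33e-08) between LN-LEC and D-LEC and a log2 fold change of 2.39 ± 0.21 (SE, edgeR adjusted p = 4.26e-07) between D-LEC and LN-BEC. Rgma, a ligand of Neo1, was likewise highest in D-LEC, with 81.2 to 203 there, 29.5 to 53.1 in LN-LEC and 9.45 to 17.5 in LN-BEC.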
